A study of Arabidopsis thaliana with 12 samples.

Results

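Nitrogen reaches the cells of a shoot as nitrate, ammonium and amino acids. Nitrate enters cells through transporters of the NPF (NRT1/PTR) and NRT2 families, is reduced by nitrate reductase and nitrite reductase to ammonium, and is built into glutamine by glutamine synthetase, after which amino acid permeases move the products between cells and tissues. Many of these genes respond within hours to nitrate or to reduced nitrogen, and transcription factors of several families, LATERAL ORGAN BOUNDARIES DOMAIN (LBD) proteins among them, set their level.

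The 4 genes described here stand at different steps of this route. They are NIA2 (AT1G37130, probe set 261979_at), which encodes a nitrate reductase, LBD37 (AT5G67420, 246996_at), an LBD transcription factor known as a repressor of nitrogen-responsive genes, AT3G16180 (258332_at), a nitrate transporter gene of the NPF family also called NRT1.12, and AT1G25530 (255726_at), annotated as a putative lysine and histidine specific transporter similar to LHT1. They were taken by locus, 4 of 22595 entries tested on the Arabidopsis ATH1 array. These entries are called loci here, but only 14389 were named loci, and the rest were probe sets kept under their ID. They were chosen by their response to WUSCHEL (WUS) induction on these arrays, so their Dex versus mock values, and the Dex+Cyc versus Cyc values of AT3G16180 and AT1G25530, are a description and were given no test. The same holds for the comparisons that share those arrays. The probe sets of NIA2, LBD37 and AT3G16180 got their locus from the tables of changed genes in the supplement, and that of AT1G25530 from the platform's annotation.

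All arrays came from Arabidopsis plants of 1 genotype, 35S::WUS-GR in the ap1-1;cal1-1 double mutant, in which the ubiquitous 35S promoter drives WUS fused to the hormone-binding domain of the glucocorticoid receptor, and flower formation is replaced by proliferating shoot apical meristems (SAMs). Plants 28 days old received mock solution, 10 µM dexamethasone (Dex, which releases the fusion protein into the nucleus), 10 µM cycloheximide (Cyc, an inhibitor of protein synthesis) or both for 4 h, with 3 arrays per group and 12 in all. RNA was taken from SAMs of pooled plants. WUS was therefore active throughout the tissue rather than in its own domain, and Dex given to plants without the transgene was not analysed here. The paper's results text describes the treatments with Cyc as independent experiments, and its methods do not say more. In Cyc versus mock and Dex+Cyc versus Dex, the effect of Cyc and that of the experiment therefore cannot be told apart. The same limit holds wherever the Dex effect with Cyc is set against the Dex effect without it. Dex versus mock asks which genes respond to WUS, and Dex+Cyc versus Cyc asks which of them respond while new protein cannot be made. Nothing in the labels tells whether the 3 samples of a group are separate sets of plants, and the p-values rest on a spread that may be technical.

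The values were MAS5 signals, the brightness of a probe set in linear units, and every array had the same trimmed mean of 500. Array medians lay between 212 and 236, and log2 signals of arrays of 1 group correlated at 0.938 to 0.949. Of 29 marker genes for cell types, 7 had a named probe set. The 3 meristem markers had summed signals of 3173 to 3884 on mock, 1841 to 2234 on Dex, 1801 to 2140 on Cyc and 1160 to 1342 on Dex+Cyc arrays, and the floral, xylem, guard cell and root markers together 907 to 1394, 736 to 937, 586 to 724 and 411 to 617. CLV3, the stem cell signal that WUS activates, was 3.48 higher on the log2 scale with Dex, and KNAT1, a meristem homeobox gene of the flanks and stem, was 1.77 lower. No marker of phloem or photosynthetic leaf cells had a named probe set, and no marker was at 0. The meristem sums were lower with Dex in either background without overlap. KNAT1 was their largest part with mock and Cyc (means 2860 and 1481). With Dex and Dex+Cyc, CLV3 was (912 and 546, against 836 and 503 for KNAT1). The paper reports KNAT1 among the genes that WUS represses. The sums of the others, carried mostly by the floral gene PI, overlapped between Dex and mock and between Dex+Cyc and Cyc. The part of these shifts in the results below was not tested. In such bulk RNA, fewer cells of a type and less RNA per cell cannot be told apart.

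NIA2 was low in mock-treated SAMs, higher with Dex, and far higher with Cyc. Its signal was 46.0, 44.3 and 46.3 on the mock arrays, and 185, 144 and 117 on the Dex arrays. Every Dex array lay above every mock array, by 2.53-fold to 4.18-fold over the 9 pairs of arrays. On the Cyc arrays the signal was 2892, 2524 and 2404, and on the Dex+Cyc arrays 2158, 1482 and 1548. The 4 groups did not overlap, and they stood in the order mock, Dex, Dex+Cyc, Cyc, each separated from the next. The group means were 45.5 ± 1.06, 149 ± 34.3, 1729 ± 373 and 2607 ± 254 in that order (SD, n = 3).

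The Dex effect on NIA2 therefore had opposite signs without and with Cyc. Dex versus mock was 1.68 ± 0.19 on the log2 scale (SE of the fit), which is 3.21-fold, and Dex+Cyc versus Cyc was -0.61 ± 0.19, which is 1.52-fold lower. The study's lists, made from these same samples, held NIA2 and LBD37 for Dex without Cyc only. Dex+Cyc versus Cyc was therefore tested for these genes. Both had, however, already missed the study's limits in that comparison, and their values were in view when the 4 genes were chosen. A failure to pass was thus largely set by the choice and is no separate evidence. Although each Dex+Cyc array lay below each Cyc array, by 1.11-fold to 1.95-fold, the limma test across all loci gave an adjusted p of 0.179, short of the threshold of 0.01. The difference of these Dex effects was -2.29 ± 0.27. The gap between Cyc and mock was far larger, with 57.1-fold more signal in Cyc (5.83 ± 0.19 on the log2 scale, 51.9-fold to 65.2-fold over the array pairs), and Dex+Cyc exceeded Dex by 3.54 ± 0.19. The mock signal of NIA2 was under the array medians, and the values carry no detection call, so the mock level may hold background; with 32 added to every signal before taking logs, Dex versus mock was 1.21.

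LBD37 was also low in mock and higher in each of the other groups. The mock arrays gave 194, 255 and 268, and the Dex arrays 915, 891 and 1007. The 9 ratios of a Dex to a mock array ran from 3.32 to 5.19, so the groups lay much farther apart than the arrays within either. Cyc arrays stood at 1527, 1230 and 1478, and Dex+Cyc arrays at 1937, 1814 and 1677, again without overlap between any groups, in the order mock, Dex, Cyc, Dex+Cyc. The means were 239 ± 39.7, 938 ± 61.1, 1412 ± 159 and 1809 ± 130 (SD, n = 3).

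Dex versus mock was 1.98 ± 0.15 on the log2 scale for LBD37, or 3.95-fold. With Cyc present the Dex effect kept its direction but was small: Dex+Cyc versus Cyc was 0.36 ± 0.15, or 1.29-fold, with an adjusted p of 0.310 by limma, which does not pass the threshold. The effects differed by -1.62 ± 0.21. Cyc versus mock was 2.57 ± 0.15, or 5.93-fold, and Dex+Cyc versus Dex 0.95 ± 0.15. LBD37 and NIA2 thus shared a higher signal with Dex and one higher still with Cyc. That neither Dex effect passed with Cyc follows largely from their choice outside the study's list with Cyc.

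AT3G16180 showed the reverse, with its highest signal in mock and a lower signal wherever Dex was given. The NPF gene gave 3998, 3439 and 4315 on mock arrays, against 1522, 1140 and 1101 on Dex arrays. On Cyc arrays it gave 2796, 2627 and 2697, and on Dex+Cyc arrays 1159, 1033 and 846. Each Dex array was lower than each mock array, by 2.26-fold to 3.92-fold, and each Dex+Cyc array lower than each Cyc array, by 2.27-fold to 3.31-fold. The Dex and Dex+Cyc arrays overlapped, and these were the only pair of treatment groups to do so for any of the 4 genes among the 4 comparisons made. Means were 3917 ± 444 for mock, 1255 ± 233 for Dex, 2707 ± 85.1 for Cyc and 1012 ± 158 for Dex+Cyc (SD, n = 3).

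The Dex effect on AT3G16180 was of like size without and with Cyc, at -1.65 ± 0.16 and -1.43 ± 0.16 on the log2 scale. Their difference, 0.22 ± 0.23, was no larger than its standard error. Cyc versus mock was -0.53 ± 0.16, and Dex+Cyc versus Dex -0.31 ± 0.16, each smaller than either Dex effect.

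AT1G25530, the LHT1-like amino acid transporter gene, followed the same course. Its signal was 1735, 1165 and 1385 with mock and 491, 425 and 392 with Dex. With Cyc it was 931, 983 and 745, and with Dex+Cyc 330, 294 and 321. The groups did not overlap in any of the 4 comparisons, and the order ran from mock through Cyc and Dex to Dex+Cyc. Mean signals were 1428 ± 288, 886 ± 125, 436 ± 50.2 and 315 ± 18.8 in that order (SD, n = 3). The gene was 3.25-fold lower in Dex than in mock (-1.70 ± 0.17 on the log2 scale) and 2.79-fold lower in Dex+Cyc than in Cyc (-1.48 ± 0.17), effects that differed by 0.22 ± 0.24. Cyc versus mock was smaller, at -0.68 ± 0.17, and Dex+Cyc versus Dex was -0.46 ± 0.17.

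**Figure D1:**
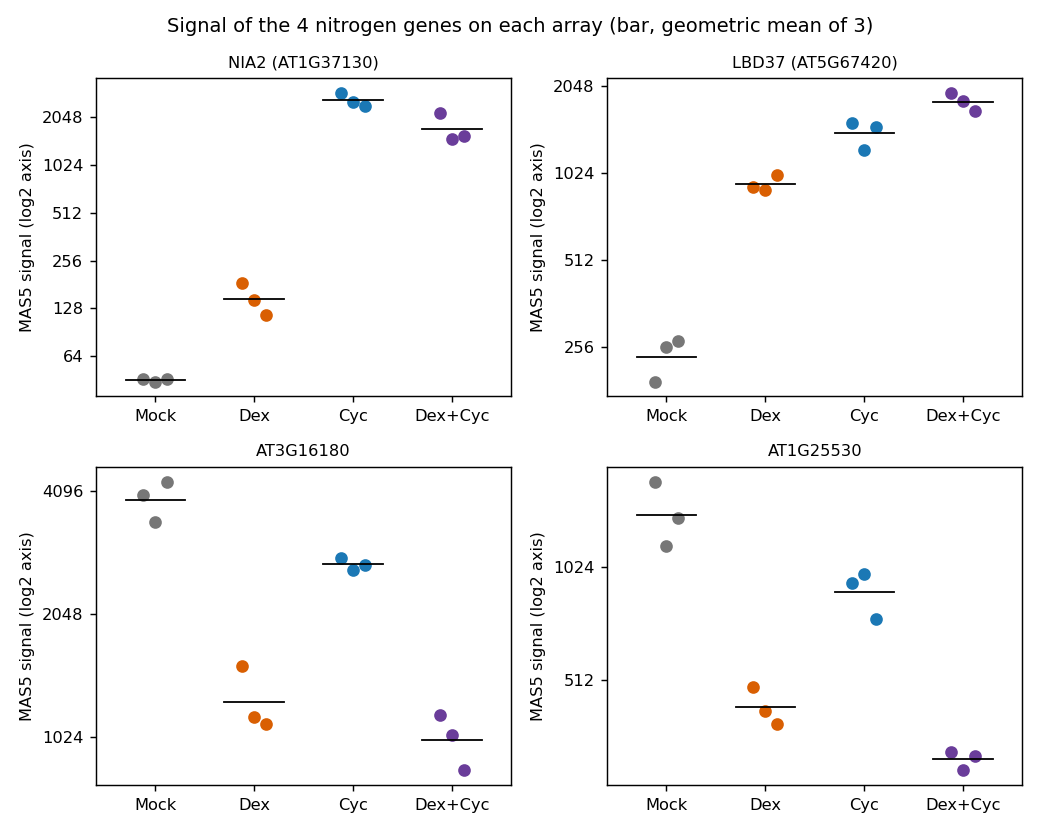
MAS5 signal (log2 axis, a panel per gene) on each of the 12 arrays, by treatment group, with a bar at the geometric mean of the 3 arrays. NIA2 and LBD37 sit lowest in mock and at 1230 or more on every array with Cyc, while AT3G16180 and AT1G25530 sit highest in mock and low in both groups that received Dex.

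Separation of groups was common across the array: the arrays of the groups did not overlap for 25.4% of loci in Dex versus mock, 21.1% in Dex+Cyc versus Cyc, 50.0% in Cyc versus mock and 52.2% in Dex+Cyc versus Dex.

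**Figure D2:**
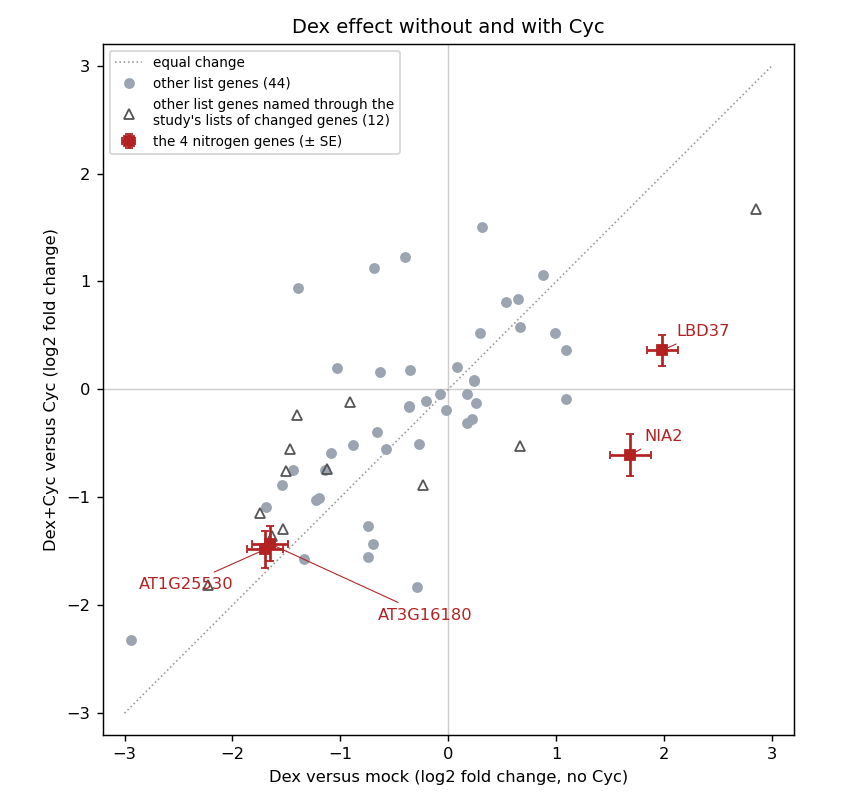
Log2 fold change of Dex versus mock (x axis) against Dex+Cyc versus Cyc (y axis) for the 4 nitrogen genes (squares, with SE) and 56 other nitrogen genes (circles, or triangles for the 12 whose name came from the supplement's changed genes). AT3G16180 and AT1G25530 lie near the dotted line of equal change, LBD37 and NIA2 far to the right of it, and NIA2 below 0 on the y axis.

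The rest of the nitrogen route was described with a list of 154 other genes, of which 56 had a named probe set. Of these, 12 owe their name to the supplement's tables of changed genes. Their Dex responses are therefore not independent evidence and are counted apart in this paragraph. Later counts by family and over all 56 genes include them unless stated otherwise. A gene passed where limma gave an adjusted p under 0.01 and the change was 2-fold or more. Over all loci, 102 passed as higher and 165 as lower in Dex versus mock, and 3 and 21 in Dex+Cyc versus Cyc. The paper, with another normalization, reports more changed genes in each of these classes. A gene that did not pass here may thus have passed there, and not passing does not show the absence of a response. Among the 44 named without those lists, 1 passed as lower and 0 as higher in Dex versus mock, where 0.730% of all loci passed as lower and 0.451% as higher. In Dex+Cyc versus Cyc, 1 passed as lower and 0 as higher, against 0.0929% and 0.0133% of all loci. At an unadjusted p under 0.05 the limma counts were 17 of the 44 in Dex versus mock and 11 in Dex+Cyc versus Cyc, where 19.3% and 13.8% of all loci met that limit. The median log2 change of the 44 was -0.36 in Dex versus mock and -0.14 in Dex+Cyc versus Cyc, against -0.01 and 0.03 over all loci. Values were negative for 28 of the 44 and 27 of the 44, against 50.6% and 46.3% of all loci. Of the 12 named through the lists, 4 passed in Dex versus mock, all lower, and 0 passed in Dex+Cyc versus Cyc. These calls lay near the threshold: with each of the 12 arrays left out in turn, AT5G13400 passed 10 times, GLN1;1 6, AAP6 4, AAP4 2 and AT1G52190 1 time in Dex versus mock, and NPF3.1 2 times in Dex+Cyc versus Cyc, all with the same direction.

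Nitrate reduction was represented by NIA1 (AT1G77760), the other nitrate reductase gene, which is one of those 12. Its signal was 269, 229 and 274 with mock and 132, 141 and 136 with Dex. Dex arrays of NIA1 lay below all mock arrays, where those of NIA2 lay above, although the NIA1 change of -0.91 ± 0.23 did not pass (adjusted p = 0.0574, limma). With Cyc the gene gave 768, 841 and 804, and with Dex+Cyc 616, 1163 and 566. Both nitrate reductase genes were thus high on arrays with Cyc: NIA1 rose by 1.65 on the log2 scale in Cyc versus mock (adjusted p = 0.000427). Dex+Cyc versus Cyc was -0.12 for NIA1 (adjusted p = 0.893), with overlapping arrays. NIR1, which encodes nitrite reductase, and LBD38 and LBD39, the nearest relatives of LBD37, had no named probe set and were not analysed here.

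Around AT3G16180, the NPF family was the role with the most measured genes. Of 26 other members, 22 had a negative Dex versus mock value and 18 a negative Dex+Cyc versus Cyc value, with medians of -0.72 and -0.54, against -0.01 and 0.03 over all loci. For the 24 named without the study's lists the medians were -0.69 and -0.45. Several of these genes were dim, and with 32 added to every signal the medians of the 26 shrank to -0.35 and -0.34. In 11 of the 26 the Dex arrays lay wholly below the mock arrays and in 0 wholly above, and in Dex+Cyc versus Cyc the counts were 8 and 0. For the 24 named without the lists, 9 and 6 lay wholly below and 0 above. Over all loci, arrays were apart in either direction for 25.4% and 21.1%, and the share below alone was not computed. Only 2 of the 26 passed the test in Dex versus mock, and these were AT1G52190 and AT5G13400.

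AT1G52190 (NRT1.11), the closest relative of AT3G16180, fell from 1936, 1625 and 1756 on mock to 683, 606 and 554 on Dex arrays, by 1.53 on the log2 scale (adjusted p = 0.00826, limma). With Cyc it was 723, 917 and 858, and with Dex+Cyc 424, 420 and 217. Dex+Cyc versus Cyc was -1.29 (adjusted p = 0.0365), the same direction as AT3G16180 but short of the threshold. AT1G52190 is among the genes named through the study's lists, and both it and AT3G16180 are known as nitrate transporters of the phloem that redistribute nitrate to young leaves.

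AT5G13400, a proton-dependent oligopeptide transporter family gene, fell with Dex from 482, 425 and 428 to 183, 210 and 189, by 1.20 on the log2 scale (adjusted p = 0.00211). It gave 376, 352 and 313 with Cyc and 176, 197 and 148 with Dex+Cyc, lower on every array but short of the threshold (adjusted p = 0.0121). Of the other NPF genes, NPF3.1 (AT1G68570) was the 1 to pass in Dex+Cyc versus Cyc. Its Cyc arrays gave 960, 885 and 830 and its Dex+Cyc arrays 353, 396 and 361, a fall by 1.27 on the log2 scale (adjusted p = 0.00674). Dex versus mock was -0.74 for NPF3.1 (adjusted p = 0.00988), under 2-fold. NRT1.1 (NPF6.3, AT1G12110), the nitrate transporter that also senses nitrate, gave 182, 109 and 183 with mock and 44.0, 53.3 and 40.7 with Dex, a change of -1.75 that did not pass (adjusted p = 0.0134).

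Most relatives of AT1G25530 had Dex values of the opposite sign, though none passed the test. Of 5 other measured LHT genes, 0 passed in Dex versus mock or in Dex+Cyc versus Cyc, 4 had positive and 1 a negative value in each. The 1 negative gene, LHT7, was named through the study's lists. The 4 named without them were positive in both comparisons, with medians of 0.77 and 0.55, but all except AT1G47670 were dim. AT1G47670 gave 475, 384 and 348 with mock and 582, 666 and 651 with Dex, a change of 0.66 opposite in sign to AT1G25530 (adjusted p = 0.0334, limma), and its Dex+Cyc versus Cyc value was 0.57 (adjusted p = 0.108). LHT7 (AT4G35180) gave 67.5, 48.0 and 88.8 with mock, 37.9, 10.9 and 6.85 with Dex, 3092, 3954 and 2824 with Cyc and 1144, 979 and 714 with Dex+Cyc. It thus had negative Dex values without Cyc (-2.22, adjusted p = 0.0474) and with it (-1.81, adjusted p = 0.158), like AT1G25530, but rose by 5.62 in Cyc versus mock (adjusted p = 3.83e-05), where AT1G25530 was lower. AT1G67640, AT1G71680 and AT1G48640 were dim, at 38.0, 6.32 and 5.54 in mock on average, and their Dex versus mock values of 0.87, 0.30 and 0.99 had adjusted p of 0.528, 0.884 and 0.295.

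**Figure D3:**
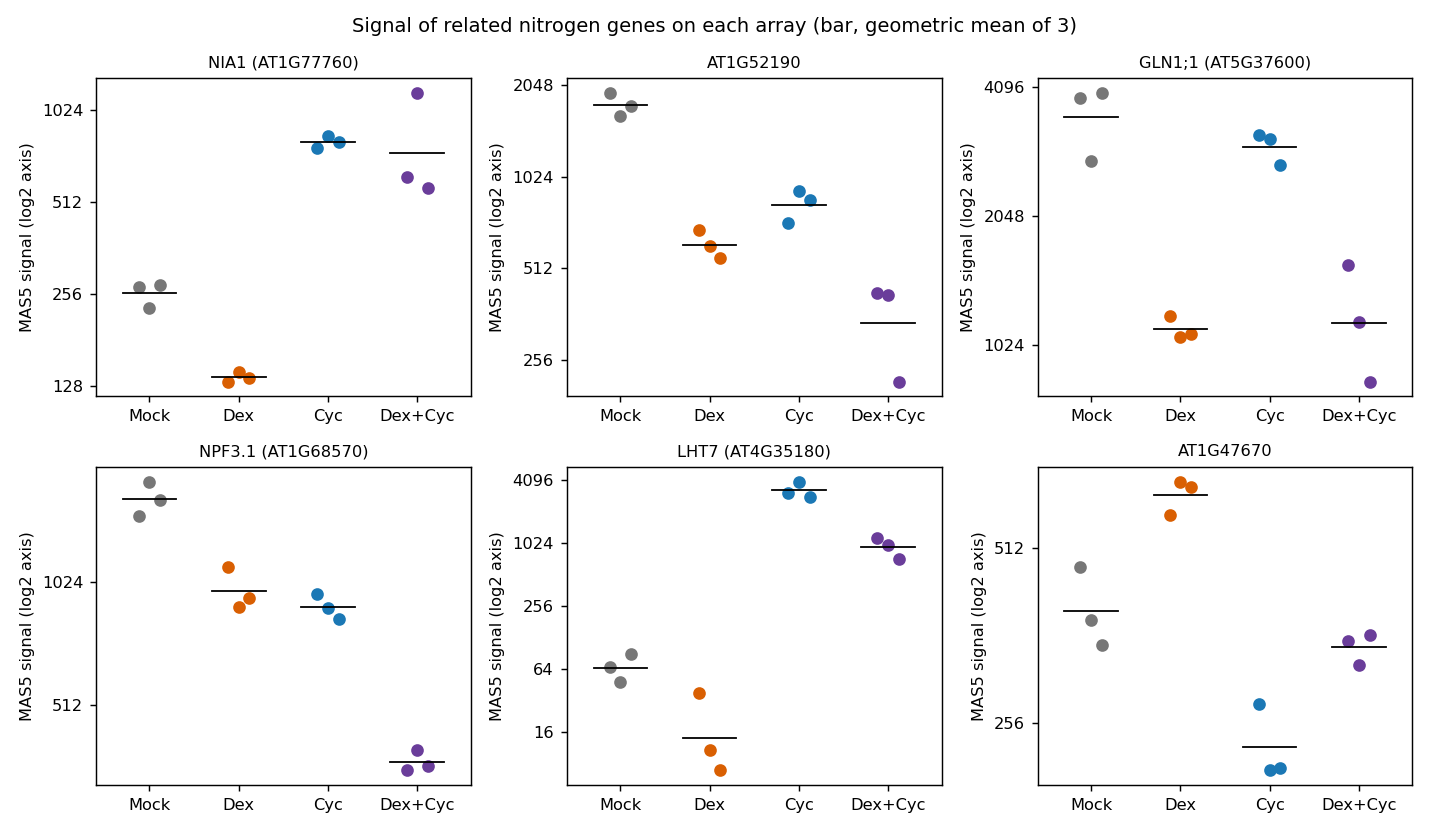
MAS5 signal (log2 axis, a panel per gene) of 6 related nitrogen genes on each of the 12 arrays, with a bar at the geometric mean of the 3 arrays of a group. AT1G52190, GLN1;1 and NPF3.1 sit lower in each Dex group than in its control, AT1G47670 higher, NIA1 lower only without Cyc, and NIA1 and LHT7 sit far higher on arrays with Cyc.

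Further along the route, GLN1;1 (AT5G37600), a cytosolic glutamine synthetase, fell from 3854, 2747 and 3959 on mock to 1201, 1071 and 1088 on Dex arrays, by 1.63 on the log2 scale (adjusted p = 0.00458). Its Dex+Cyc versus Cyc value was -1.36 (adjusted p = 0.0234). The amino acid permease genes AAP4 (AT5G63850) and AAP6 (AT5G49630) fell in Dex versus mock (-1.50 and -1.47 on the log2 scale; adjusted p = 0.00699 and 0.00529). With Cyc their Dex effects were -0.75 and -0.55 (adjusted p = 0.162 and 0.272). These 3 genes, with AT1G52190, are the 4 named through the study's lists that passed. Of the 6 other measured regulators of nitrate signalling, 0 passed in either Dex comparison, although 5 had a positive Dex versus mock value (median 0.66). For the 5 named without the study's lists the median was 0.24, with 4 positive. The highest of the 6 Dex versus mock values was that of NLP3 (AT4G38340), a nitrate-signalling transcription factor gene. NLP3 was named through the study's lists and singled out here after its values were seen. Its Dex versus mock value was 2.85 ± 0.67 with every Dex array above mock (adjusted p = 0.0409, limma), and its Dex+Cyc versus Cyc value 1.67 ± 0.67 (adjusted p = 0.305). NLP3 was dim, at 32.8, 55.1 and 14.0 on mock and 35.6, 10.2 and 62.2 on Cyc arrays, so the size of these changes is uncertain. The test of the difference of the Dex effects passed for 0 of the 56 genes, against 0.00885% of all loci (9 of the 56 at an unadjusted p under 0.05 by limma, and 8.25% of all loci).

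Between the Cyc and mock arrays, which the paper describes as independent experiments, 8.30% of loci passed as higher with Cyc and 7.32% as lower. The median shift over all loci was -0.18. Of the 56 other nitrogen genes, 11 rose and 4 fell, and their median was 0.16. Regulators and amino acid transporters were among those that rose beside NIA1: AT1G25550 by 5.66, AT1G68670 by 2.24, LHT7 by 5.62, AT1G48640 by 3.16, AAP5 (AT1G44100) by 3.12 and the cationic amino acid transporter CAT1 (AT4G21120) by 3.40 on the log2 scale. Among genes of the NPF and NRT2 families NPF4.3 (AT1G59740) rose by 3.86, AT1G22570 by 1.20 and NRT2.5 (AT1G12940), a high-affinity nitrate transporter, by 1.77, while NPF6.2 (AT2G26690) fell by 1.91. G6PD2 (AT5G13110), a glucose-6-phosphate dehydrogenase that supplies reductant, rose by 1.17, and GLU1 (AT5G04140), the ferredoxin-dependent glutamate synthase, and AMT1;2 (AT1G64780), an ammonium transporter, fell (-1.79 and -1.58). The adjusted p of these 13 genes ranged from 2e-06 to 0.00445. AT1G52190, the closest relative of AT3G16180, also fell (-1.09, adjusted p = 0.00536, limma). NIA2 and LBD37, at 5.83 and 2.57, thus had Cyc values of the same sign as the genes that rose, and AT3G16180 and AT1G25530, at -0.53 and -0.68, were lower by more than the median locus.

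**Figure D4:**
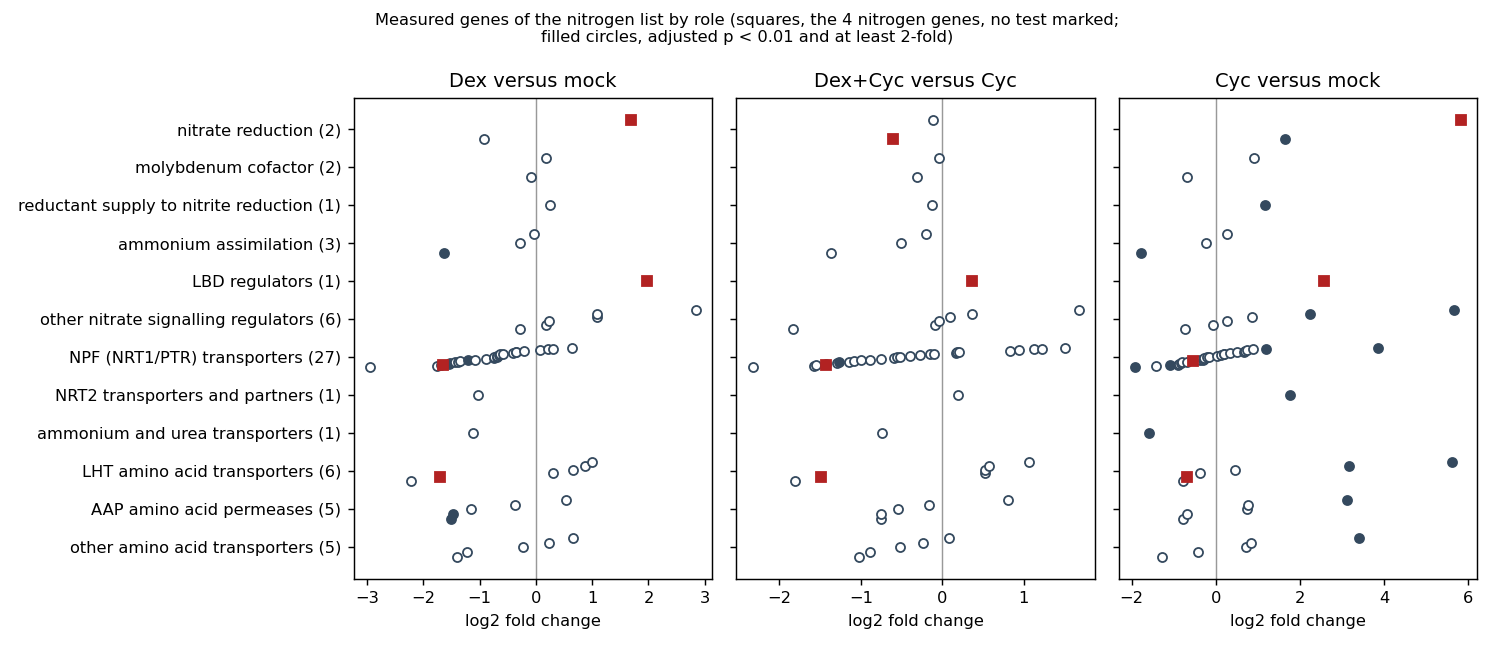
Log2 fold change in Dex versus mock, Dex+Cyc versus Cyc and Cyc versus mock (x axes, a panel each, on different scales) for the measured nitrogen genes by role (rows, with their number). Squares are the 4 nitrogen genes, shown with no test, circles the other 56, and filled circles pass both limits. NPF genes lie mostly left of 0 in both Dex panels, and NIA2 lies farthest right under Cyc.

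The loci whose signal ran most like each gene over the 12 arrays were sought among 1801 or 1802 loci with a symbol and a mean signal of 100 or more, by Pearson's r of log2 signal, as a description. The candidates lean towards genes of the study's lists, and r is set mostly by the differences between the 4 groups. For NIA2 they were ZCF37 (AT1G59590, 0.99), SERAT2;1 (AT1G55920, 0.99), a serine acetyltransferase, and the carbonic anhydrase gene BCA4 (AT1G70410, 0.99). ZCF37 averaged 6.04 in mock, 40.4 in Dex, 8023 in Cyc and 8221 in Dex+Cyc, so its step from mock to Cyc was far larger than that of NIA2, and it lacked the lower Dex+Cyc level. For LBD37 they were SR1 (AT5G01820, 0.98), a protein kinase, the invertase gene A/N-InvC (AT3G06500, 0.98) and ERF8 (AT1G53170, 0.97), an ethylene response factor.

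For AT3G16180 the most like loci were BOP2 (AT2G41370, 0.98), a regulator of leaf and flower patterning, CXE18 (AT5G23530, 0.97), a carboxylesterase, and GLN1;1 (0.96). CXE18 was also among those of AT1G25530 (0.97), with MTO3 (AT3G17390, 0.97), an S-adenosylmethionine synthetase. CXE18 averaged 1146, 482, 733 and 332 in mock, Dex, Cyc and Dex+Cyc, the order of AT1G25530. The same locus thus stood near both transporter genes, whereas no locus was shared between the sets of NIA2 and LBD37.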

How the data were processed

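ATH1 arrays of 12 RNA samples were analysed, 3 for each of mock, Dex, Cyc and Dex+Cyc, grouped by their labels. The deposited intensity values were MAS5 signals on a linear scale, computed by the authors with MAS5 and affy, as the submitters' processing notes list, and scaled so that an array's mean was 500 once 2% of probe sets were trimmed from either end. The study's own tests used another normalization of the raw scans, which was not used here. The intensities come without detection calls, and the number of arrays, 3 a group, limits the precision, most of all for dim probe sets. Of 22810 probe sets, 64 controls were left out; 14540 were given a locus, 13484 from the platform's annotation, 635 from a supplementary table in probe order and 421 from the supplement's tables of changed genes alone. The rest kept their ID. The brightest probe set of a locus was kept.

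Log2 signals were fitted with limma 3.58.1 in R 4.3.3, with a mean for each of the 4 groups over all 12 arrays, eBayes and Benjamini-Hochberg adjustment over 22595 loci. A locus was called where its change was 2-fold or more and its adjusted p under 0.01, and for the difference of the Dex effects at an adjusted p under 0.01. NIA2 and LBD37 were tested only in Dex+Cyc versus Cyc, at an adjusted p under 0.01. The fit was tested on simulated data. The members, the nitrogen list and the marker list were chosen with earlier results of these data known. Of the list, the nearest relatives of the members, the loci called in either Dex comparison, up to 3 loci a role with the largest called change in Cyc versus mock, and the 3 loci of most like pattern were named, except 1 locus that is not reported here; NLP3, CNX1, and the CLV3, KNAT1 and PI markers were named apart from that rule. Alternatives were quantile normalization, median centring, 32 added to each signal, the replicate number as a block, omission of the 40% of probe sets that were dimmest, a fit of just the 6 arrays compared, a variance trend with robust shrinkage, all probe sets, an adjusted p under 0.05, and omission of each array. No sequences were read, and no promoter motif was sought. Gene names were taken from RefSeq's table.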

Additional observations from a re-analysis of the deposited data

Results flagged for a closer look

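In 2 of the 60 measured nitrogen genes, the Dex arrays lay wholly to one side of mock and the Dex+Cyc arrays wholly to the opposite side of Cyc. The share of all loci that met this rule was not computed. Arrays were apart in either direction for 25.4% of loci in Dex versus mock and 21.1% in Dex+Cyc versus Cyc, so the count of 2 is a description. In NIA2 the Dex effect was 1.68 on the log2 scale without Cyc and -0.61 with it, a difference of -2.29, which was not tested because NIA2 was chosen on one side of it. In CNX1 (AT5G20990), which acts in making the molybdenum cofactor that nitrate reductase needs, the effects were 0.17 and -0.31, a difference of -0.48 with an adjusted p of 0.518 by limma. Its signal was 652, 696 and 708 with mock, 712, 733 and 882 with Dex, 1211, 1371 and 1275 with Cyc, and 984, 1195 and 946 with Dex+Cyc. The CNX1 arrays of mock and Dex were separated by less than the spread within either group. CNX1 was picked out after its values were seen.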

How the results depend on the processing

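No value of the 4 genes changed sign under any alternative run. Signs of single genes of the list could turn: 38 of 56 were negative in Dex versus mock, and 37 with median centring or with 32 added. NIA2 in Dex+Cyc versus Cyc lay between -0.78 and -0.51 without each array in turn (adjusted p 0.115 to 0.421), and its adjusted p over all alternatives was 0.0608 to 0.421; LBD37 lay between 0.27 and 0.42 (0.202 to 0.573, over all alternatives 0.160 to 0.573), so neither passed. Counts of other nitrogen genes that passed in the Dex comparisons did depend on the setting. Dex versus mock gave 5, against 11 at an adjusted p under 0.05, 8 with 32 added, 10 with 40% of probe sets, the dimmest, left out, 10 with a trended variance and 0 in the fit of only 6 arrays (22 at an unadjusted p under 0.05). Leaving out 1 array gave 0 to 4: 0 without Dex replicate 3 or mock replicate 1, 1 without Cyc replicate 3, Dex replicate 2 or mock replicate 3, 2 without Dex replicate 1 or Dex+Cyc replicate 2, and 3 without Dex+Cyc replicate 1 or mock replicate 2. Dex+Cyc versus Cyc gave 1, against 4, 4, 4, 4 and 0 under the same settings, and 0 without any 1 array other than Dex replicate 1 or mock replicate 2, which left 1. Cyc versus mock gave 13 to 15 without 1 array and the difference of the Dex effects 0. The added 32 moved NIA2 in Dex versus mock to 1.21, in Cyc versus mock to 5.08 and its difference to -1.80; quantile normalization moved Cyc versus mock to 5.73. Deviations of arrays with the same number correlated at -0.08 to 0.29, and those with different numbers at -0.26 to 0.16. Between Cyc and Dex+Cyc arrays, same numbers gave 0.29, 0.24 and 0.03, and different numbers -0.26 to 0.09. The main fit did not take the numbers to pair the samples, but pairing within the Cyc arrays is not excluded. With the replicate number as a block the Dex comparisons gave 1 and 0 genes, Cyc versus mock stayed at 15, and NIA2 and LBD37 had adjusted p of 0.123 and 0.380. Spread between arrays was largest for dim loci, with a median SD of 1.25 on the log2 scale in the dimmest of 5 equal groups and 0.15 in the brightest.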
